A study of Mus musculus with 170 samples.

Results

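Transcripts of 36 genes of mitosis and cytokinesis were measured in single cells of the mouse embryonic heart, out of 40549 genes in the deposited table. The 36 were listed by name, and all of them were present in the table. Cells came from the ventricular part of E9.5 hearts of C57BL/6 mice and were compared between 2 genotypes. Control hearts, labelled wild type, were homozygous for the floxed Dgcr8 allele (Dgcr8 loxP/loxP) and carried the membrane reporter Rosa26 mT/mG/+ without any Cre. Conditional knockout (cKO) hearts were Mesp1 Cre/+; Dgcr8-/-, made from the same floxed allele and the same reporter. Cre was expressed from the Mesp1 locus, which is active in mesodermal progenitors of the heart and vessels, so recombination took place before cardiac cell types separated and was not limited to cardiomyocytes. Dgcr8 is the RNA-binding subunit of the microprocessor, the complex that releases microRNA hairpins from their primary transcripts. Cells were dissociated, picked by hand and sequenced by Smart-seq2 in 2 batches. The labels tie no cell to an embryo, so each genotype counts as 1 sample, and spreads over cells are given without a test between genotypes.

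Mitosis divides the duplicated chromosomes between 2 daughter cells. Cyclin A and cyclin B bind the kinase Cdk1 to drive entry into mitosis, the Aurora and Polo kinases build the spindle and correct its attachments, and the spindle checkpoint holds the cell until every kinetochore is attached. The anaphase-promoting complex then marks cyclin B and securin for degradation, sister chromatids separate, and the central spindle directs the contractile ring that completes cytokinesis. Transcripts of most of these genes accumulate in late S phase and G2 and decline after division, so their joint presence in a cell is commonly read as a sign of a cycling cell. In the embryonic heart, cardiomyocytes still divide while they beat, and this division adds to cardiomyocyte number.

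Of 143 cells with values, 74 were control and 69 were cKO. Clustering on 55 marker genes, none of them a member, gave 93 cardiomyocyte-like (CM-like) cells with all 15 cardiomyocyte markers, 22 endothelial-like cells, 13 epicardial-like cells, 5 erythroid-like cells and 10 cells in a cluster that stayed unnamed. The leading genes of that cluster were mitochondrial, but its cells ranged from 4.32% to 61.4% mitochondrial TPM. The endothelial-like cluster also held 5 of 14 mesenchymal markers and the epicardial-like cluster 9 of 14. CM-like cells numbered 27 in the control (19 in batch 1 and 8 in batch 2) and 66 in the cKO (33 in each batch). No cKO cell fell in the other named classes, and 0 of 69 cells allows a share of up to 4.35%, so genotypes were compared in CM-like cells alone. The median number of genes above 0 TPM (a level scaled for transcript length and for the cell's total), the only trace of depth in the table, was 8458 in control and 9845 in cKO CM-like cells of batch 1, against 9704 and 7786 in batch 2. Dgcr8, the targeted gene, reached 1 TPM in 14 of 27 control and 21 of 66 cKO CM-like cells, and TPM per gene does not separate the deleted exons from the rest. Xist was at 1 TPM or more in 0 of 27 control and 63 of 66 cKO CM-like cells, whereas the Y-linked Ddx3y was in 18 of 27 and 0 of 66, so that embryo sex and genotype cannot be told apart in these cells.

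Promoters of this gene class are known for CCAAT boxes, bound by NF-Y, and for the cell cycle genes homology region (CHR), bound by the DREAM and MuvB complexes. RefSeq promoter sequences (GRCm38.p6, 250 bases before to 50 bases after the start site) were at hand for 30 of the 36 genes, with 2 promoters each for Ect2 and Prc1. They were searched on both strands for the CCAAT box (CCAAT or ATTGG) and for the CHR (TTTGAA, its reverse complement TTCAAA, or TTCGAA). A CHR was found in 26 of 32 member promoters (81.2%) against 19.2% of all 32851 promoters of the same length, and a CCAAT box in 25 of 32 (78.1%) against 37.4%. Both motifs occurred together in 23 of 32 (71.9%) against 7.52% of all. In 59 promoters of other mitosis genes, a list compared below, the shares were 67.8% (CHR), 71.2% (CCAAT box) and 54.2% (both). In 40 promoters of S phase genes they were 17.5%, 62.5% and 15%. The CCAAT boxes lay mostly upstream, 36 of 57 matches within the 100 bases before the start, and the CHR closer to it, with a median first base at -15. Words this short also occur by base composition alone, and a match says nothing of binding. Aurkb, Ccna2, Incenp, Kif20a, Smc4 and Tpx2 were not searched. The promoters below are shown because they belong to the members at both ends of the difference between genotypes. Cenpa, Cdc20 and Ube2c were among the lowest in cKO relative to control, and Top2a and Anln among the highest. Capitals mark the CCAAT boxes and the CHR, and sequences run 5′ to 3′ on the strand of the gene. Cenpa lies at chr5:30666636-30666935 (plus strand), Cdc20 at chr4:118437294-118437593 (minus), Ube2c at chr2:164769679-164769978 (plus), Top2a at chr11:99024140-99024439 (minus) and Anln at chr9:22389157-22389456 (minus).
Cenpa: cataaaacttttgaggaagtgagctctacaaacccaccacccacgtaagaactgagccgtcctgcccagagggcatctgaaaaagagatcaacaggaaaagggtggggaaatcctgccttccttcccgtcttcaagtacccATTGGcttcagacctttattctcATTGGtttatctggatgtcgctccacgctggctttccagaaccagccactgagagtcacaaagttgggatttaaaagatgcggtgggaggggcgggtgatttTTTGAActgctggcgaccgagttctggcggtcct
Cdc20: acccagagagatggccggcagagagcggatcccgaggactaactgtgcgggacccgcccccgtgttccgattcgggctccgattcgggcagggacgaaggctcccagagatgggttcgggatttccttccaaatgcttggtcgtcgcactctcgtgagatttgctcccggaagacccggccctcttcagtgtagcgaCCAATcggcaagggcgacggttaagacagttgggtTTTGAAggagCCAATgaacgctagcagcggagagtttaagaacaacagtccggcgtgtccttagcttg
Ube2c: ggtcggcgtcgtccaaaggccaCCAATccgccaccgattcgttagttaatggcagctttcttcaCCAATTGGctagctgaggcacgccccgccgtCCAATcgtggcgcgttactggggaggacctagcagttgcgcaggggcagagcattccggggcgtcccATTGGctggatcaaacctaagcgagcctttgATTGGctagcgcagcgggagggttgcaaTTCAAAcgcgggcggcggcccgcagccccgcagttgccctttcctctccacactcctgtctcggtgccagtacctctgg
Top2a: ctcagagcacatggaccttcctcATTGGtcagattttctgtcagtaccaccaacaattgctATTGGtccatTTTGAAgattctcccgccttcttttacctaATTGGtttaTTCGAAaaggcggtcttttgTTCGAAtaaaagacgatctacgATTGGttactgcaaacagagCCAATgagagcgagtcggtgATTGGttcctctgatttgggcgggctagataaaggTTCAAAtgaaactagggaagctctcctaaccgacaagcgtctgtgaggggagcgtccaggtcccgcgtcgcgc
Anln: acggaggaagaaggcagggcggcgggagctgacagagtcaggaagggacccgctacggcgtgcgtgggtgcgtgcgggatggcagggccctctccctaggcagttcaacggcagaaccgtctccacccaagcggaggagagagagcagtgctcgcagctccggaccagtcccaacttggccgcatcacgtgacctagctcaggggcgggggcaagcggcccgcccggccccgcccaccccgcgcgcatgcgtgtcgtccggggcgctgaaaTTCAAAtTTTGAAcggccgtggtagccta

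A CHR was present in all 5 of these promoters and a CCAAT box in 4 of them. Cenpa held 2 CCAAT boxes and a CHR at position 17 after the start, Cdc20 held 2 CCAAT boxes with a CHR at -18, and Ube2c held 6 CCAAT boxes, an overlapping pair among them, with a CHR at -29. Top2a, which was higher in cKO, held 6 CCAAT boxes and 4 CHR matches, while Anln held no CCAAT box in this window and 2 CHR matches at positions 22 and 29.

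**Figure D1:**
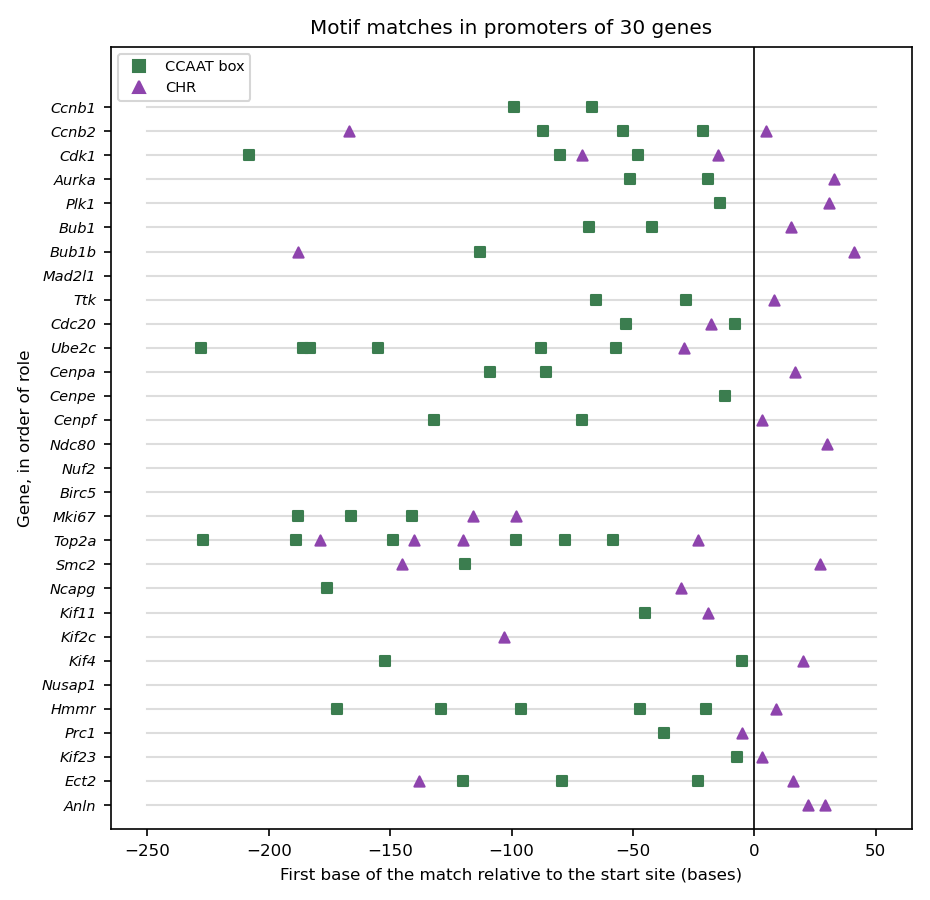
Places of CCAAT boxes (squares) and CHR matches (triangles) in the promoters of 30 genes, 1 row per gene in order of role, with the first base of each match on the horizontal axis in bases from the start site. Most CCAAT boxes lie within 100 bases before the start, most CHR matches around it, and 4 genes (Mad2l1, Nuf2, Birc5 and Nusap1) hold neither word.

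All 36 genes had TPM above 0 in more than 10 CM-like cells and entered the comparison of genotypes. Their difference, the mean log2(TPM + 1) over cKO CM-like cells minus that over control CM-like cells, had a median of -0.06, against 0.06 over all 15061 genes compared. The median was 0.09 in batch 1 and -1.08 in batch 2, and it turned positive with a pseudocount of 10, with the ratio of mean TPM and when the 10 unnamed cells were added. Of the members, 9 were lower in cKO by 1 or more (a 2-fold difference on the log2 scale), and 5.97% of all genes were. At the other end, 2 of the 36 members were higher by 1 or more, near the share of all genes (7.6%). All 9 were lower in both batches (5.85% of all genes) and both of the 2 were higher in both batches (6.73% of all genes). The 9 lower members were Cenpa, Cdc20, Kif20a, Ube2c, Birc5, Aurka, Ccnb1, Ccna2 and Mad2l1, and the 2 higher ones were Aurkb and Top2a.

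With batches pooled, the spread between cells was wider than any of these differences. The standard deviation over cells ran from 1.54 (Smc2) to 3.60 (Cdc20) in control cells and from 2.10 (Kif4) to 3.51 (Cdc20) in cKO cells, no member differed between genotypes by more than the smaller of its SDs, and the ranges of both genotypes overlapped for all 36. In batch 2 alone, Cdc20 (-4.21), Cenpa (-3.22) and Kif20a (-2.40) differed by more than the SD of the 8 control cells (2.43, 1.52 and 2.34), and Cdc20 also by more than that of the cKO cells (3.71). Most members were thus high in some CM-like cells of each genotype and at or near 0 in others.

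**Figure D2:**
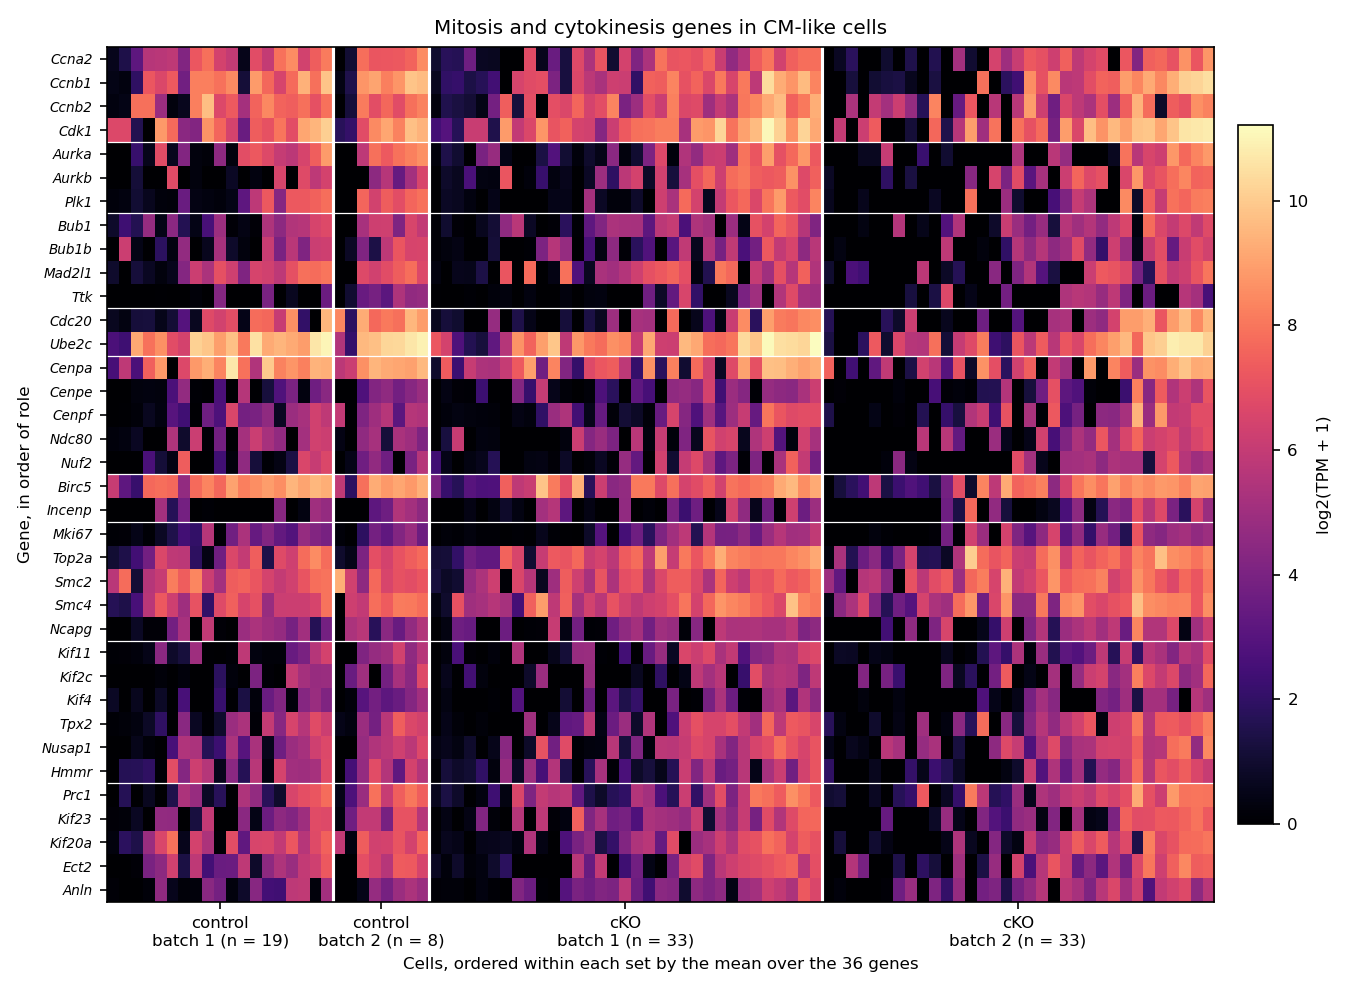
Level of each of the 36 genes (rows, grouped by role with white lines between roles) in each of 93 CM-like cells (columns), in log2(TPM + 1). Within each genotype and batch, cells are ordered by their mean over the 36 genes, from cells with few of the transcripts on the left to cells with nearly all of them on the right, and both ends are present in all 4 sets.

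Cyclins and their kinase were lower or level in cKO cells. Ccna2, cyclin A2, ranged from 0.00 to 8.53 in log2(TPM + 1) with a median of 6.40 in control CM-like cells, and from 0.00 to 8.75 with a median of 5.46 in cKO cells. Ccnb1, cyclin B1, had a median of 7.86 (0.33 to 9.84) in control and 6.39 (0.00 to 10.49) in cKO cells. Both cyclins reached like maxima in the 2 genotypes, and the gap lay in the middle and the low end of the range. The mean of Ccna2 was lower in cKO by 1.23 (0.84 in batch 1 and 1.72 in batch 2), and that of Ccnb1 by 1.36 (0.60 and 2.43). Ccnb2, cyclin B2, differed by -0.59 (-0.28 and -0.86). Cdk1, the kinase these cyclins activate, had a median of 7.39 (0.00 to 10.10) in control and 7.71 (0.00 to 11.05) in cKO cells. Its pooled difference of 0.06 hid opposite batch values, 0.64 in batch 1 and -0.70 in batch 2. Cdk1 was among the most widely detected members, at 1 TPM or more in 26 of 27 control and 60 of 66 cKO cells. The per-cell difference Cdk1 minus Ccnb1 was 0.18 ± 2.61 (SD, n = 27) in control and 1.60 ± 2.80 (n = 66) in cKO cells, with Cdk1 the higher in 13 of 27 and 47 of 66 cells. In batch 1 this difference was 0.27 ± 3.06 against 1.51 ± 2.33, and in batch 2 -0.05 ± 1.00 against 1.68 ± 3.25, so it was higher in cKO in both batches. The gap was below the SD of both genotypes in batch 1 and above that of the control cells in batch 2.

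The mitotic kinases differed in both directions. Aurka, the Aurora kinase of centrosomes and spindle poles, had a median of 5.79 (0.00 to 8.86) in control and 1.22 (0.00 to 8.96) in cKO CM-like cells. Aurkb, the Aurora kinase of the chromosomal passenger complex, had a median of 0.28 (0.00 to 6.81) in control and 4.20 (0.00 to 8.79) in cKO cells. The paralogs thus had differences of opposite sign, Aurka of -1.37 (-0.38 in batch 1 and -3.07 in batch 2) and Aurkb of 1.60 (2.12 and 0.55). Within cells, the difference Aurkb minus Aurka was -2.25 ± 3.12 in control and 0.72 ± 2.84 in cKO cells. Aurka was the higher of the pair in 18 of 27 control cells, Aurkb in 33 of 66 cKO cells against 26 with Aurka the higher, and the direction of the mean was the same in each batch. Aurkb was detected in 40.7% of control cells (95% exact Clopper-Pearson interval 22.4 to 61.2, n = 27) and in 62.1% of cKO cells (49.3 to 73.8, n = 66). These intervals cover counting error only and overlap. Plk1, Polo-like kinase 1, had a median of 3.53 (0.00 to 7.92) in control and 0.69 (0.00 to 8.87) in cKO cells, with a difference of 0.08 in batch 1 and -2.80 in batch 2.

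Of the spindle checkpoint genes, 1 of 4 was lower by 1 or more with batches pooled (5.97% of all genes) and 3 of 4 in batch 2 (20.8%). Mad2l1, the subunit that sequesters Cdc20, averaged 4.74 ± 2.98 in control and 3.56 ± 3.06 in cKO cells (difference -1.19, with -0.45 in batch 1 and -2.20 in batch 2). The checkpoint kinases Bub1 and Ttk and the checkpoint subunit Bub1b differed by -0.12, 0.26 and -0.36 with the batches pooled. Ttk was the least detected member, in 10 of 27 control and 24 of 66 cKO cells, with opposite signs in the batches, 0.86 in batch 1 and -1.41 in batch 2.

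Both members of the anaphase-promoting machinery were lower in cKO. Cdc20, the activator that brings substrates to the complex, had a median of 6.39 (0.00 to 9.52) in control and 1.43 (0.00 to 9.64) in cKO CM-like cells. It was detected in 21 of 27 and 37 of 66 cells, and its mean differed by -1.68, with -0.77 in batch 1 and -4.21 in batch 2. The batch 2 value was the lowest of any member in either batch and rests on 8 control cells, all of which had Cdc20 at 1 TPM or more, against 18 of 33 cKO cells. Ube2c, the ubiquitin-conjugating enzyme of the complex, was the most abundant member in both genotypes, at 8.48 ± 2.58 in control and 7.01 ± 3.04 in cKO cells. It was detected in all 27 control cells and in 63 of 66 cKO cells, so its difference of -1.47 (-0.70 and -2.34) was one of level rather than of presence. The exons of Cdc20 overlap those of Elovl1 on the other strand and those of Ube2c overlap Tnnc2, a troponin gene, and this library type does not keep the strand.

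Among the 5 centromere and kinetochore genes, Cenpa was the 1 that differed by 1 or more with batches pooled, and in batch 2 Cenpf did too. Of all genes, 5.97% were lower by 1 or more with batches pooled and 20.8% in batch 2. Cenpa, the histone H3 variant that marks centromeres, had a median of 8.63 (0.00 to 10.70) in control and 6.35 (0.00 to 9.85) in cKO CM-like cells. Its difference of -1.99 was the lowest of the 36, with -1.19 in batch 1 and -3.22 in batch 2, and it stayed at or below -1 under each of the 16 alternative settings. Ndc80 and Nuf2, partners in the complex that grips microtubules, differed by -0.01 and 0.08. Cenpe, a kinetochore motor, differed by 0.29 (0.79 and -0.75), and Cenpf, a large coiled-coil protein of the outer kinetochore, by -0.17 (0.07 and -1.02). With genotypes pooled, Cenpa also followed the other members least closely, with a Pearson r of 0.49 to their mean over 93 CM-like cells. The next values to set beside it were 0.51 for Smc2, a median of 0.71 over members and 0.83 for Ccnb1. Within cKO cells Cenpa was again the lowest (0.46), but within control cells Smc2 was (0.20), with Cenpa at 0.60.

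The passenger scaffold genes Birc5 and Incenp act with Aurkb but differed otherwise. Birc5, or survivin, had a median of 8.36 (1.92 to 9.52) in control and 7.17 (0.00 to 9.85) in cKO cells and was lower by 1.41 (1.10 in batch 1 and 1.75 in batch 2). All 27 control and 64 of 66 cKO cells held it, and in batch 2, 31 of 33 cKO cells did. Incenp, the scaffold that binds Aurkb, was low in both genotypes, at 1.75 ± 2.22 in control and 2.06 ± 2.39 in cKO cells (0.55 in batch 1 and -0.51 in batch 2). Aurkb and Birc5 were found together in 11 of 27 control cells (40.7%, interval 22.4 to 61.2) and 40 of 66 cKO cells (60.6%, 47.8 to 72.4). Birc5 was present without Aurkb in 16 and 24. With Birc5 in nearly every cell, these counts largely repeat the detection of Aurkb alone. The per-cell difference Aurkb minus Birc5 was -5.36 ± 2.71 in control and -2.35 ± 2.74 in cKO cells. Birc5 was the higher in 27 of 27 control cells and in 56 of 66 cKO cells.

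Genes of chromosome structure differed in both directions. Top2a, the topoisomerase that untangles sister chromatids, had a median of 5.96 (0.41 to 8.54) in control and 7.15 (0.29 to 10.05) in cKO CM-like cells. Its mean was higher in cKO by 1.34, with 1.59 in batch 1 and 0.97 in batch 2. Smc2 and Smc4, which pair as the core of condensin, went apart: Smc2 differed by -0.63 (-0.95 and -0.46) and Smc4 by 0.59 (0.95 and -0.15). Ncapg, a condensin I subunit, differed by 0.12 (0.38 and -0.63). Mki67, which coats mitotic chromosomes and is the common marker of cycling cells, was at a like level in both genotypes: its median was 3.27 (0.00 to 5.64) in control and 2.98 (0.00 to 7.18) in cKO cells, and the genotypes differed by 0.01 (-0.22 and 0.19). Mki67 was detected in 19 of 27 control cells (70.4%, 49.8 to 86.2) and 39 of 66 cKO cells (59.1%, 46.3 to 71).

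With batches pooled, none of the 6 spindle motors and assembly factors differed by 1 or more, beside 5.97% of all genes lower and 7.6% higher. The plus-end motor Kif11, the microtubule depolymerase Kif2c, the chromokinesin Kif4, the Aurka activator Tpx2 and the microtubule binders Nusap1 and Hmmr differed by 0.14, 0.56, -0.26, 0.29, 0.52 and -0.90. In batch 1, 5 of the 6 were higher in cKO (9935 of all 15061 genes), and in batch 2 all 6 were lower (8988 of 15061). Kif11 (-1.37), Kif4 (-1.15) and Hmmr (-1.38) were past 1 in batch 2, where 20.8% of all genes were lower by 1 or more. Tpx2 and its kinase Aurka were found together in 15 of 27 control and 27 of 66 cKO cells, and Tpx2 without Aurka in 1 and 15.

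Genes of the central spindle and of cytokinesis stood at both ends. Kif20a, a kinesin of the central spindle, had a median of 6.40 (0.17 to 7.93) in control and 4.22 (0.00 to 8.24) in cKO CM-like cells and was lower by 1.55 (1.15 in batch 1 and 2.40 in batch 2). Anln, anillin, which links the contractile ring to the membrane, had a median of 2.39 (0.00 to 5.88) in control and 4.08 (0.00 to 7.25) in cKO cells. It was higher in cKO by 0.87, with 0.97 in batch 1 and 0.43 in batch 2, and was detected in 14 of 27 and 46 of 66 cells. Prc1, the bundler of antiparallel microtubules, and Kif23, a kinesin of the midzone, had differences that changed sign between batches. They were 1.08 and -1.27 for Prc1 and 1.00 and -1.87 for Kif23. Ect2, the exchange factor that activates RhoA at the cell equator, differed by -0.65 (-0.56 and -1.22). Exons of Kif20a overlap Cdc23, and those of Prc1 overlap Rccd1. In all, 10 of the 36 genes share exon sequence with another annotated gene.

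The batches did not give the same picture. In batch 1, 3 members were lower by 1 or more (3.76% of all genes) and 3 higher (12.9%), whereas in batch 2, 19 were lower (20.8%) and 0 higher (5.87%). The difference was lower in batch 2 than in batch 1 for 33 of the 36, and 17 of the 36 (47.2%) had the same sign in both, against 55.8% of all genes. The median over all genes moved the same way, from 0.17 in batch 1 to -0.17 in batch 2, by less than that of the members. The number of genes detected per cell moved with it, as given above for both batches, and its part in the result was not tested. With the 2 batches weighted equally, 11 members were lower (8.16% of all genes) and 2 higher (5.99%).

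**Figure D3:**
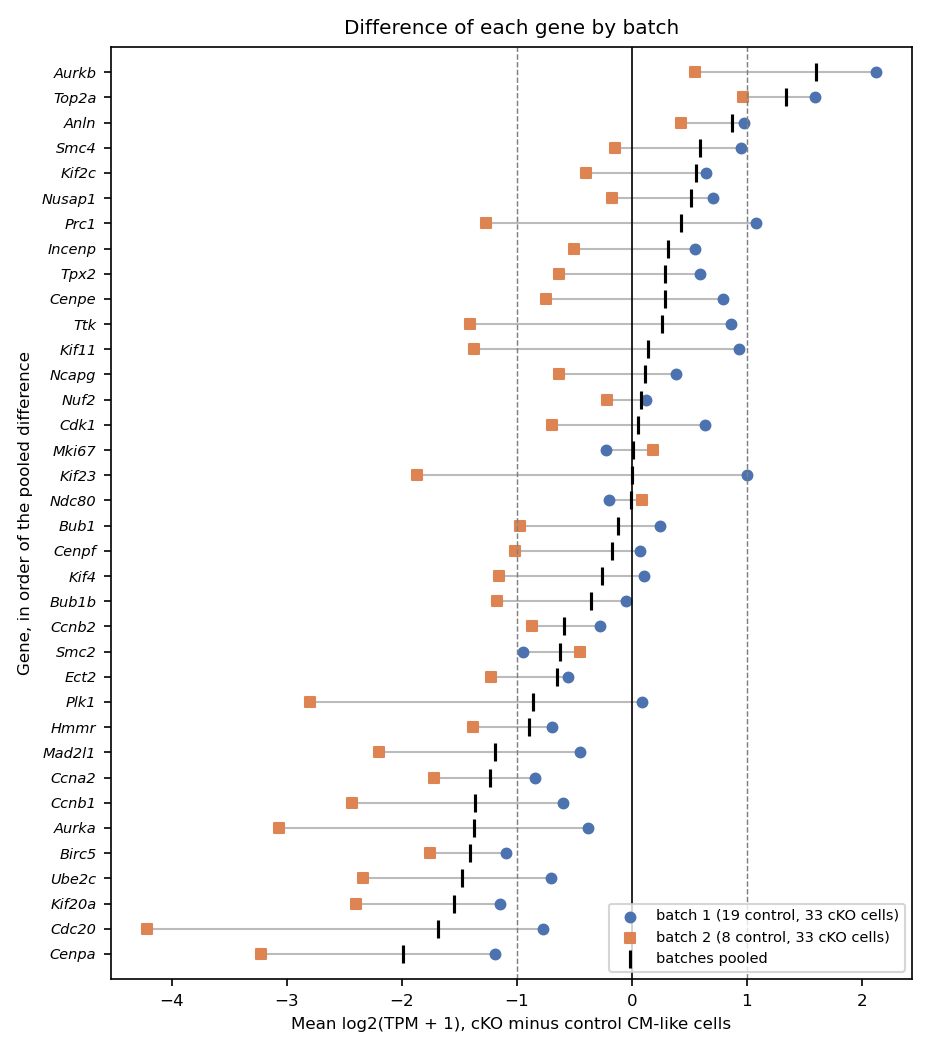
Difference in mean log2(TPM + 1), cKO minus control CM-like cells, for each of the 36 genes in batch 1 (circles), batch 2 (squares) and both pooled (bars), with dashed lines at -1 and 1. Cenpa, Kif20a and Birc5 lie below -1 and only Aurkb, Top2a and Anln lie above 0 in both batches, and squares lie left of circles for 33 of the 36.

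The size of these differences also hung on the measure. Taken as the log2 ratio of mean TPM, which follows the cells with the highest values, 1 member was lower by 1 or more (Cenpa, -1.07), against 5.36% of all genes. By this measure 4 members were higher, Aurkb (1.59), Cenpe (1.23), Top2a (1.13) and Cenpf (1.00), and 16.4% of all genes were, a larger share than that of the members. With the 10 unnamed cells counted as CM-like, 2 members were lower (2.32% of all genes) and 4 higher (12.4%). With clusters built from variable genes without the markers, 12 were lower (10.2%) and 1 higher (5.54%). The 9 lower members named above were below 0, and Aurkb, Top2a and Anln above 0, under each of the 16 settings. Among the 36, longer transcripts tended to have higher differences, with a Spearman rho of 0.27 (0.18 over 14292 genes of known length), given as a description. The share of mitochondrial transcripts had a median of 6.303% in control and 2.95% in cKO CM-like cells, and without cells above 20% the counts were 10 lower (7.72% of all genes) and 2 higher (6.26%). Markers of other cell types also moved with the genotype, and their part in the result was not tested. The summed mesenchymal markers had a median of 73.9 TPM in control and 288.6 TPM in cKO CM-like cells (ranges 2.93 to 578.5 and 5.39 to 1893.5, 1 of 14 markers present in most cells of each genotype, Postn at 0 in all cKO cells), and the 13 endothelial markers 17.98 and 49.7 TPM (0 to 270.8 and 3.09 to 411.6, 2 of 13 present in most cells). The 6 epicardial markers summed to 24.4 and 33.7 TPM and the 7 erythroid markers to 1.34 and 7.35 TPM at the median.

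Cells were next read for how many of the 36 they held together. A CM-like cell of the control held a median of 27 members at 1 TPM or more (7 to 36), and a cKO cell a median of 26 (6 to 36). All 36 were present in 4 of 27 control and 6 of 66 cKO cells. With co-expression set at 18 or more members, 22 of 27 control cells (81.5%, exact interval 61.9 to 93.7) and 46 of 66 cKO cells (69.7%, 57.1 to 80.4) co-expressed them. The intervals overlapped in batch 1 (16 of 19 and 24 of 33) and in batch 2 (6 of 8 and 22 of 33). The gap closed when the 10 unnamed cells were included (67.6% and 68.1%) and at a threshold of 24 members (59.3% and 59.1%). The count had no empty middle: 3 control and 8 cKO cells held 16 to 19 members. Free RNA in the wells could add single transcripts, and no cell type without division was measured to set that level.

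**Figure D4:**
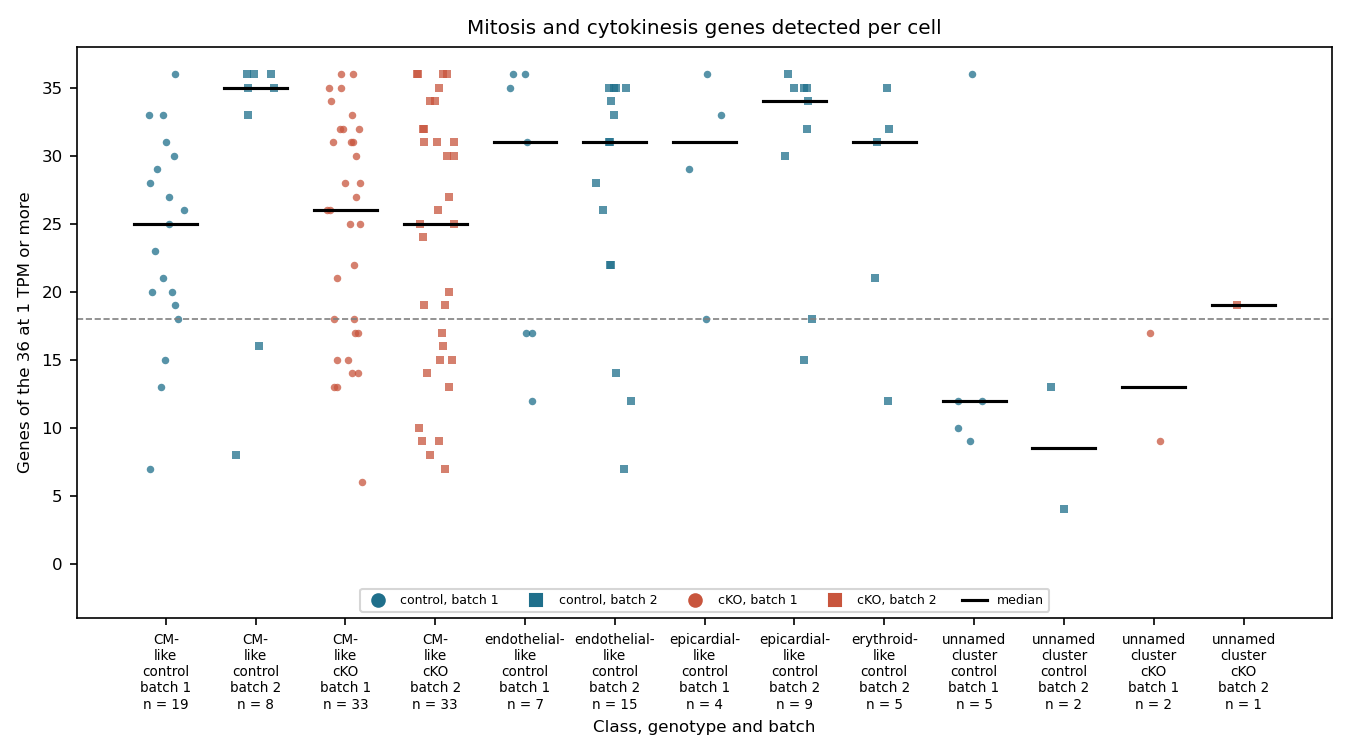
Number of the 36 genes at 1 TPM or more in each cell, by class, genotype (blue control, red cKO) and batch (circles batch 1, squares batch 2), with a black bar at the median and a dashed line at 18. CM-like medians are 25 and 35 in the control and 26 and 25 in the cKO, and 6 of the 8 control CM-like cells of batch 2 hold at least 24.

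The 8 control CM-like cells of batch 2 held a median of 35 members, with 3 of them holding all 36, against 25 in control cells of batch 1 and 26 and 25 in cKO cells. Their mean over the 36 genes was 4.96 ± 2.23, against 3.78 ± 1.60 (n = 19), 3.90 ± 1.87 (n = 33) and 3.79 ± 2.18 (n = 33). The means of the 3 larger sets were close to each other, and the batch 2 differences rest on 8 control cells. Together the 36 genes took a median of 0.39% of a control CM-like cell's TPM and 0.23% of a cKO cell's, and up to 0.99% and 1.19%.

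Cells with more detected genes had a higher member mean, with a Pearson r of 0.59 over 27 control and 0.19 over 66 cKO cells, a description in which depth is shared by both measures. It followed the mean of 60 other mitosis genes closely, at r = 0.95 over 93 cells. The 10 genes outside the list most like the member mean, of 10136 compared, were Cdca8 (r = 0.77), Cdca3 (0.75), Kif22 (0.75), Racgap1 (0.73), Cep55 (0.72), Sgol2 (0.72), Ccnf (0.71), Trim59 (0.71), C330027C09Rik (0.70) and Hmgb2 (0.69). The first 7 belong to the list of other mitosis genes: Cdca8, or borealin, is the remaining subunit of the passenger complex, Racgap1 the partner of Kif23, Cep55 a factor of abscission and Ccnf cyclin F.

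Genes of DNA replication were compared with the 36 cell by cell. The list of 42 S phase genes had a median difference of -0.53 (-0.19 in batch 1 and -0.85 in batch 2), with 5 lower by 1 or more (5.97% of all genes) and 1 higher (7.6%). In batch 1, 7 were lower and 2 higher (3.76% and 12.9% of all genes), and in batch 2, 18 and 0 (20.8% and 5.87%). The lowest of the same sign in both batches were Rrm2, the small subunit of ribonucleotide reductase, at -2.95 (7.45 in control, 4.50 in cKO), the replicative helicase subunit Mcm4 at -1.87 and Uhrf1, the reader of hemimethylated DNA, at -1.77. The highest were the GINS subunit Gins2 at 1.08, the methyltransferase Dnmt1 at 0.86 and DNA ligase Lig1 at 0.40. A cell was placed by whether it held 18 or more mitosis genes and 21 or more of the 42 S phase genes. Both were held by 19 of 27 control and 42 of 66 cKO cells, the S phase genes without the mitosis genes by 4 and 13, the mitosis genes without the S phase genes by 3 and 4, and neither by 1 and 7. The member mean minus the S phase mean of a cell was 0.09 ± 1.62 (-2.76 to 2.26) in control and 0.32 ± 2.20 (-2.99 to 5.05) in cKO cells, and the highest values were those of cKO cells. Across cells the 2 means were related with r = 0.51 in the control (0.32 in batch 1 with n = 19, 0.89 in batch 2 with n = 8) and 0.21 in the cKO (0.30 and 0.15, n = 33 each).

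**Figure D5:**
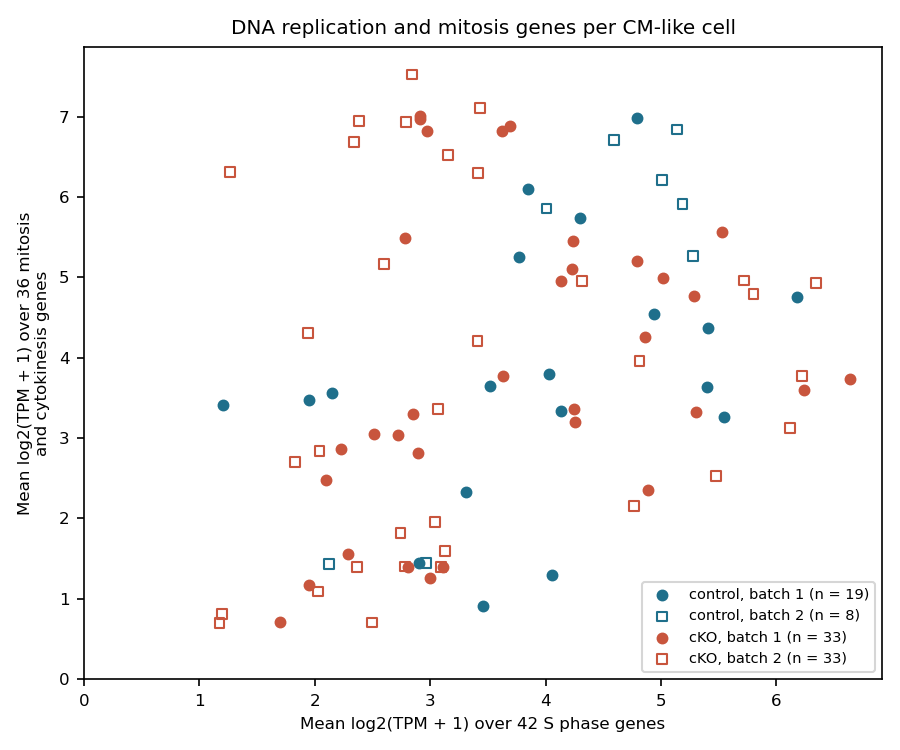
Mean log2(TPM + 1) over 42 S phase genes (horizontal) and over the 36 mitosis and cytokinesis genes (vertical) in each of 93 CM-like cells, with blue for control, red for cKO, filled circles for batch 1 and open squares for batch 2. Cells of both genotypes span the vertical axis, and the upper left, with high mitosis and low S phase means, holds cKO cells.

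Other lists of the pathway gave the following counts. Of 60 other mitosis genes, 7 were lower by 1 or more (5.97% of all genes) and 4 higher (7.6%), with a median of -0.15 (0.15 in batch 1 and -1.08 in batch 2), close to that of the 36 in each batch. In batch 1, 3 were lower and 10 higher (3.76% and 12.9% of all genes), and in batch 2, 35 and 1 (20.8% and 5.87%). The lowest were the centromere protein gene Cenpm at -2.75 (4.44 in control, 1.68 in cKO), Fam83d at -1.61 and the Cdk subunit Cks2 at -1.57. Oip5 stood highest, at 1.46, but by 2.36 in batch 1 and -0.06 in batch 2. Of the same sign in both batches, the highest was Hjurp, the chaperone that loads Cenpa, at 1.43 (3.78 and 5.22). The condensin II subunits Ncapd3 at 1.38 and Ncaph2 at 1.19 followed. Cenpa and its chaperone thus differed in opposite directions, both with the same sign in each batch (Hjurp 1.35 and 1.33). Of 18 transcription factors and MuvB subunits of mitotic genes, none differed by 1 or more with batches pooled (5.97% of all genes lower, 7.6% higher). Their median was 0.26 in batch 1, with 0 lower (3.76% of all genes) and 1 higher (12.9%) by 1 or more. In batch 2 it was -0.86, with 8 lower (20.8%) and 0 higher (5.87%). The lowest were Lin52 at -0.75, E2f1 at -0.66 and Rbbp4 at -0.58, and the highest Mybl2 at 1.00 (0.997 before rounding), Lin9 at 0.53 and Foxm1 at 0.50. Of 7 CDK inhibitor genes, Cdkn2a, Cdkn2b and Cdkn2c were in too few cells to compare. Cdkn1a, or p21, was higher in cKO by 2.03, but by 3.01 in batch 1 and -1.33 in batch 2. Cdkn1b differed by 0.64 (1.15 and -0.42), Cdkn1c by -0.30 (0.86 and -1.68) and Cdkn2d by 0.05 (-0.06 and -0.48). All 4 inhibitors compared were lower in cKO in batch 2.

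Some partners were found together in most cells. Smc2 and Smc4 were both present in 26 of 27 control and 59 of 66 cKO cells, and Ccnb1 and Cdk1 in 23 of 27 and 51 of 66. Ndc80 and Nuf2, which form 1 complex, were both found in 11 of 27 (40.7%, 22.4 to 61.2) and 23 of 66 (34.8%, 23.5 to 47.6), with Ndc80 alone in 5 and 13 and Nuf2 alone in 4 and 9. Top2a was present without Cdc20 in 6 of 27 control cells (22.2%, 8.62 to 42.3) and 28 of 66 cKO cells (42.4%, 30.3 to 55.2). Top2a without Plk1 was found in 8 of 27 (29.6%, 13.8 to 50.2) and 37 of 66 (56.1%, 43.3 to 68.3). In both pairs the intervals overlapped, and in batch 2 no control cell had Top2a alone, where 0 of 8 cells allows a share of up to 37.5%.

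The number of the 36 held by other classes of control cells was compared with that of CM-like cells, and the order depended on the batch. With batches pooled, endothelial-like cells held a median of 31 (7 to 36, n = 22), epicardial-like cells 33 (15 to 36, n = 13) and the erythroid-like cells 31 (12 to 35, n = 5), against 27 in CM-like cells. In batch 1 the medians were 31 in endothelial-like (n = 7) and 31 in epicardial-like cells (n = 4) against 25 in CM-like cells (n = 19). In batch 2, CM-like cells had the highest median, at 35 (n = 8), against 31 (n = 15), 34 (n = 9) and 31 in endothelial-like, epicardial-like and erythroid-like cells. Co-expression was found in 16 of 22 (72.7%, 49.8 to 89.3), 12 of 13 (92.3%, 63.97 to 99.8) and 4 of 5 (80%, 28.4 to 99.5), against 22 of 27 CM-like cells (81.5%), and each interval overlapped that of CM-like cells. Relative to CM-like cells, endothelial-like cells had 8 members higher by 1 or more (21.6% of 14082 genes) and 1 lower (8.42%), with a median difference of 0.36 (0.82 in batch 1 and -0.54 in batch 2) against 0.26 over all genes. In batch 1, 14 members were higher (32.4% of genes) and 2 lower (6.82%), whereas in batch 2, 3 were higher (14.8%) and 11 lower (19.6%). The highest was Cdk1, at 8.90 in endothelial-like and 6.68 in CM-like cells, a difference of 2.21 (2.59 and 1.80). Aurkb (2.11), Top2a (2.04), Smc4 (1.57) and Tpx2 (1.53) followed, and were higher in each batch. Ube2c was the 1 lower member, at -1.05 (-1.20 and -1.11).

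Epicardial-like cells had 13 members higher by 1 or more (20.4% of genes) and 0 lower (7.39%), with a median of 0.59 against 0.23 over all genes. The median was 1.21 in batch 1, with 22 higher (24.6%) and 2 lower (10.5%), and -0.20 in batch 2, with 4 higher (15.9%) and 6 lower (15.7%). Above 0 in both batches were 13 of the 36 members and 4717 of all 14082 genes, a like share. Aurkb (2.62), Incenp (2.33) and Top2a (1.84) were the highest. Aurkb and Top2a, the members higher in cKO than in control CM-like cells, were thus also higher in endothelial-like and epicardial-like control cells than in control CM-like cells, in each batch. In the 5 erythroid-like cells, all of batch 2, Aurkb averaged 2.45 and Top2a 5.40, against 3.15 and 5.13 in control CM-like cells of that batch. Aurkb was detected in 15 of 22 endothelial-like and 10 of 13 epicardial-like cells, against 11 of 27 control CM-like cells. The comparisons share the control CM-like cells, so their values are given side by side and carry no separate weight. S phase genes were higher in endothelial-like than in CM-like cells by a median of 1.23 (1.57 in batch 1 and 0.80 in batch 2), with 23 of 42 higher by 1 or more (21.6% of genes).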

How the data were processed

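Single cells of control and cKO E9.5 ventricles were sequenced with Smart-seq2 in 2 batches, and 143 of 170 labelled cells had a column of values. Per the labels and the methods of the study, the authors mapped reads with Salmon to mm10 and deposited TPM per gene. The Salmon version and annotation release are not given in the sources used here. Cells with a low mapping rate or with reporter transcripts against their genotype had been left out by the authors. TPM sums to 996133 to 999999 per cell, so depth is unknown, and no molecular identifiers were used.

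The rest was computed here with Python 3.11.15, numpy 2.4.6, pandas 2.3.3 and SciPy 1.17.1. Levels are log2(TPM + 1), detection is 1 TPM or more, and genes with TPM above 0 in more than 10 CM-like cells were compared. Cells were clustered by Ward linkage on z-scored values of 55 markers into 5 clusters, which were named from those markers. No doublet caller was run, since cells were picked singly. Per the study, control cardiomyocytes clung together more than cKO ones, so more single cKO cardiomyocytes were picked. What this selection did to the counts per cell was not tested. A difference counts from 1 upwards on the log2 scale. With 1 sample per genotype no test between genotypes was made, and intervals (95%, exact Clopper-Pearson) cover counting error only. The limit of a count of 0 is 3 of n. The scripts were tested on simulated data. For the difference between groups, these had more cells per group and a smaller spread than the real cells. They check the calculation and not its precision here. Gene positions were taken from GENCODE M21 and promoters from RefSeq. The 36 genes and the other lists were chosen with earlier results of these data known. All 36 are named. Lowest, median and highest levels are given for 10 genes set by name and for the 3 lowest and 3 highest of equal sign in both batches. In each other list the same 3 and 3 are named. The CDK inhibitors are an exception: all 4 that were compared are named, and Cdkn2d alone had the same sign in both batches. Alternative settings cover the pseudocount, the filter, the clusters, detection, depth, mitochondrial transcripts and the batch.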

Additional observations from a re-analysis of the deposited data

How the results depend on the processing

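Of 688 values recomputed under 20 alternatives, 608 stayed within a set range, and no called value changed sign. For a difference that range was the SD of its own 2 batch values, so it was wide where the batches disagreed. For the rest it was the interval of the share or a 1.5-fold range of the count. Some alternatives, such as 6 clusters, returned the same cells and values, so 608 is not a measure of robustness. The median difference of the 36 genes (-0.06) was -1.08 in batch 2 alone. The count of members lower by 1 or more (9) was 4 with a pseudocount of 10 (1.41% of all genes). It was 1 with the ratio of mean TPM (5.36%), 2 with 4 clusters (2.32%), 3 in batch 1 (3.76%) and 19 in batch 2 (20.8%). The count of members higher by 1 or more (2) was 0 with a pseudocount of 10 (2.04% of all genes). It was 4 with the ratio of mean TPM (16.4%), 0 over all cells whatever their class (6.02%) and 4 with 4 clusters (12.4%). It was 1 with clusters of variable genes (5.54%), 1 with cells of 7000 to 11000 detected genes (9.58%) and 0 in batch 2 (5.87%). The co-expression share of control CM-like cells (81.5%) was 96.3% with detection at TPM above 0 and 59.3% at 24 members or more. That of cKO cells (69.7%) was 90.9% with detection above 0, 56.1% with detection at 10 TPM and 90.9% at 12 members or more. The median over all genes shifted from 0.06 to 0.17 with 4 clusters and to 0.21 with the ratio of mean TPM, so the higher counts there stand beside 12.4% and 16.4% of all genes higher by 1 or more. The endothelial-like minus CM-like median (0.36) was -0.54 in batch 2 alone. The count of members higher in endothelial-like cells (8) was 13 with a pseudocount of 0.1 (32.9% of genes). It was 4 with a pseudocount of 10 (7.81%), 15 with 4 clusters (30.2%), 14 in batch 1 (32.4%) and 3 in batch 2 (14.8%). In the same order, the count of members lower (1) was 3 (14.5%), 0 (3.19%), 0 (4.53%), 2 (6.82%) and 11 (19.6%). In epicardial-like cells the count higher (13) was 3 with a pseudocount of 10 (6.61% of genes) and 23 with 4 clusters (29.7%). It was 22 in batch 1 (24.6%) and 4 in batch 2 (15.9%). The count lower (0) was 2 with a pseudocount of 0.1 (13.7%), 2 in batch 1 (10.5%) and 6 in batch 2 (15.7%). Causes of these shifts were not tested, except that 4 clusters merge the 10 unnamed cells into the CM-like class. Equal weight for batches, centring on all genes and leaving out cells of over 20% mitochondrial TPM were settings chosen once the data had been seen.

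No paired analysis was possible because label numbers mark single cells, which pair nothing across genotypes, and no result came from a test. Depth cannot be read from TPM, and the 8 control CM-like cells of batch 2 limit every value of that batch.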

Other observations

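The 10 unnamed cells entered the comparisons under alternative settings alone. They held 4 to 19 of the 36 genes, except for 1 control cell of batch 1 that held all 36, with a member mean of 6.16, 10851 detected genes, 40 of 42 S phase genes and 4.32% mitochondrial TPM. The other control cells of batch 1 in this cluster held 9 to 12 members at 50.7% to 59.5% mitochondrial TPM. The control cells of batch 2 held 13 and 4, and the 3 cKO cells held 17, 9 and 19.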
